A study of Mus musculus musculus x Mus musculus castaneus with 7 samples.

Results

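Gene expression in the Day 8 and Day 13 libraries of a mouse reprogramming time course was set against that in the Day 10 and Day 15 libraries, gene by gene. The days were put on these sides because an alternating myeloid signal had been seen in these values. The members were chosen by the normalized counts of these same 4 libraries, so their values are a description and no test was run on them. Genes were compared where the highest of the 4 libraries was at or above 6 on the deposited log2 scale, which is 63 normalized counts. A gene was called different where the lowest value of one side was at least 1 (2-fold) above the highest value of the other. Of the 24393 genes in the table, 15577 were compared and 683 were called. Of those compared, 318 genes (2.04%) were higher at Days 8 and 13, and 365 genes (2.34%) were higher at Days 10 and 15. A gap of any size above 0 was present in 1751 genes (11.2%) for Days 8 and 13 and in 2174 genes (14.0%) for Days 10 and 15. Because the split was drawn from these values, nothing is read from these shares.

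The study followed female embryonic fibroblasts of a Mus musculus musculus x Mus musculus castaneus cross on their way to induced pluripotent stem cells, in 7 RNA-seq libraries with 1 library per label. All 4 libraries compared here were reprogramming intermediates sorted for SSEA1, a glycan carried on the surface of pluripotent mouse cells, at Day 8, Day 13, Day 10 and Day 15. The fibroblasts had been transduced with a doxycycline-inducible lentiviral cassette of Oct4, Sox2, Klf4 and cMyc together with the M2rtTA activator, and had been sorted into a population with the X-GFP transgene on either the active or the inactive X. Which of these populations a library came from is not stated in the labels. All 4 days received 2 μg/ml doxycycline and 50 μg/ml ascorbic acid in serum medium with LIF. Lysates were stored so that all RNA could be extracted at 1 time, with 500 pg of it as input for cDNA and 80 pg of cDNA as input for each library. A further 3 libraries lay outside the split: cells of Day 2, for which the labels give no sort, iPSCs grown from picked colonies after doxycycline and ascorbic acid were withdrawn, and ESCs. Both pluripotent lines were gated as SSEA1+/GFP+.

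Macrophages and their relatives arise under the transcription factor PU.1, encoded by Spi1, and depend on the receptor of colony-stimulating factor 1 for survival. They bind antibody-coated and complement-coated particles through Fc, complement and C-type lectin receptors, engulf them, digest them in lysosomes with enzymes such as lysozyme and cathepsins, and recruit further leukocytes with chemokines. In embryos they clear dying cells, and they are the main leukocytes of many tissues before birth.

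The libraries held 41520563 reads in genes at Day 8 and 34687308 at Day 13, against 42899719 at Day 10 and 57021069 at Day 15. Day 8 stood apart in detection: of the genes compared, 21.6% had no read at Day 8, against 3.19% at Day 13, 6.18% at Day 10 and 3.33% at Day 15. Genes of the mitochondrial genome took 5.33% of the reads at Day 8 and 2.22% at Day 13, against 2.55% at Day 10 and 5.61% at Day 15. Day 8 was thus on the same side as Day 13 in the split and closest to Day 15 in this share. With 1 library per label no spread between replicates could be had. The part of RNA quality, starting amount or library preparation in the values below was not tested.

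The 3 genes given as markers of the myeloid signal were Lyz2, C1qb and Spi1, and each was called by the rule. Lyz2, the lysozyme of macrophages and granulocytes (chr10:117277331-117282321, mm10), had 18221 normalized counts at Day 8 and 24224 at Day 13, against 850.4 at Day 10 and 746 at Day 15. C1qb, a chain of the first complement component (chr4:136880129-136886187), had 4878 and 1776 normalized counts at Days 8 and 13, against 35.7 and 181 at Days 10 and 15. Spi1 (chr2:91082390-91115756) had 1725 and 519.6 normalized counts at Days 8 and 13, against no read at Day 10 and 72.6 at Day 15. For all 3 genes the sides did not overlap, and they differed in which day of a side was the higher one: Lyz2 was higher at Day 13, and C1qb and Spi1 were higher at Day 8. Folds below divide the lowest value of the higher side by the highest value of the other, so they are the smallest of the 4 ratios between the sides. On that measure Lyz2 was 21.4-fold higher at Days 8 and 13 (95% counting interval 20.2 to 22.8), C1qb 9.80-fold (8.69 to 11.1) and Spi1 7.16-fold (5.88 to 8.77). The intervals come from the read counts by the Clopper-Pearson method. The reads carried no molecular identifiers, so these intervals cover counting error only. In bulk RNA, fewer cells of a type and less RNA per cell cannot be told apart, and this holds for every leukocyte gene below.

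Lyz2 has a neighbour, Lyz1, the lysozyme best known from Paneth cells of the gut, which lies next to it on the minus strand (chr10:117287797-117292868) and was called as well. Lyz1 had 353 and 1494 normalized counts at Days 8 and 13, against 23.3 and 9.87 at Days 10 and 15. Like Lyz2 it was higher at Day 13 than at Day 8. The coding sequences of the pair, each 444 bases long, were identical at 422 positions (95%), so a short read can match both genes, and the Lyz1 value is uncertain beside a Lyz2 value many times larger. The first 120 coding bases of each are shown because their likeness is the reason for that caution. They are GENCODE M21 sequence, written 5′ to 3′, and capitals mark the 11 positions at which the genes differ.
Lyz1, chr10:117292719-117292838, minus strand: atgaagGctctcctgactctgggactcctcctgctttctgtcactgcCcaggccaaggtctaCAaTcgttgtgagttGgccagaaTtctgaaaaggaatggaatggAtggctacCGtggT
Lyz2, chr10:117282123-117282242, minus strand: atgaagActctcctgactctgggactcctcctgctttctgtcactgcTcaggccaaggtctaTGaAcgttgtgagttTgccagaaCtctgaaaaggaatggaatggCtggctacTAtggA

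Beyond the 3 markers, lists of leukocyte and macrophage genes were counted by the same rule. The lists held 273 genes, of which 252 were in the table and 215 were compared. Of these 215, 85 genes (39.5%) were higher at Days 8 and 13, beside 2.04% of all genes compared, and 1 gene (0.465%) was higher at Days 10 and 15, beside 2.34%. A further 25 genes were ordered the same way with a smaller gap, for 110 in all, 5 were ordered the other way, and 100 had overlapping sides. With reads required in all 4 libraries, 47 list genes were higher at Days 8 and 13, beside 188 of all 11613 genes then compared. None was higher at Days 10 and 15, beside 61 of all 11613. At that share the lists would hold few such genes or none, so nothing is read from their absence. The 1 gene higher at Days 10 and 15 became 28 without the Day 13 library, where 4075 of all 15126 genes compared were higher on that side. It became 8 without Day 10, beside 1551 of all 15265 genes, and 3 without Day 15, beside 597 of all 14733. The median gap of the 215 genes was 0.18 on the log2 scale, and over all genes compared it was 0. The lists were written with the myeloid signal of these data known, so their share describes the split and is no independent support for it. Summed over the 252 genes, the lists took 1.31% of the reads at Day 8 and 1.00% at Day 13, against 0.655% at Day 10 and 0.543% at Day 15. The genes of the lysosome list, many of them broadly expressed, made up 0.643% and 0.536% of the reads at Days 8 and 13, against 0.411% and 0.272% at Days 10 and 15.

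**Figure D1:**
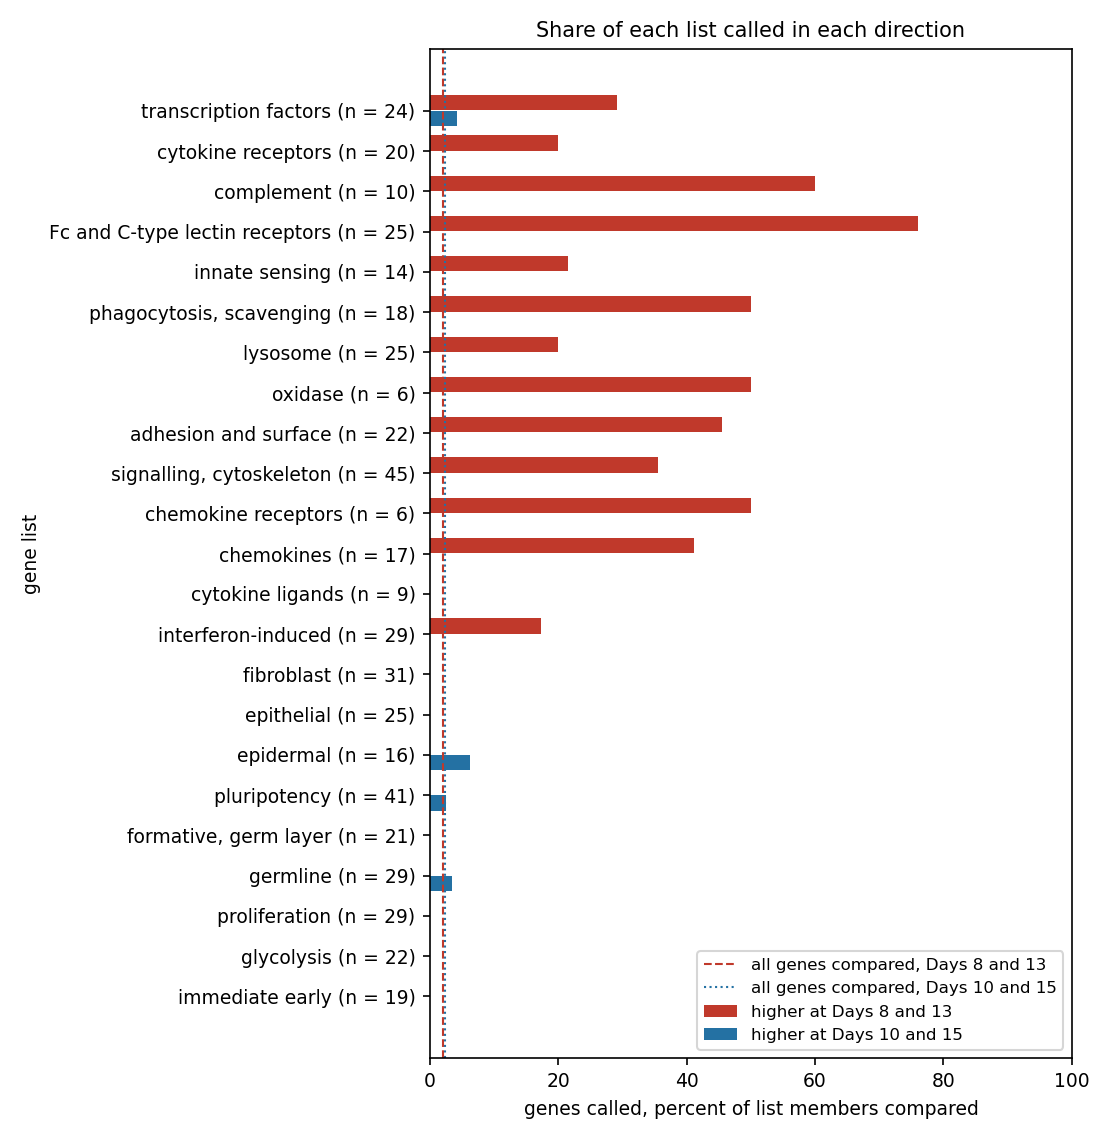
Percent of the compared members of each gene list (n beside its name) that were called higher at Days 8 and 13 (red bars) or at Days 10 and 15 (blue bars). The dashed and dotted lines mark the shares over all genes compared, 2.04% and 2.34%. The red bars of leukocyte lists reach 76% for Fc and C-type lectin receptors and 60% for complement, and the fibroblast, epithelial, formative, proliferation, glycolysis and immediate early lists have no bar.

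The plot of list shares orders the leukocyte genes by role. Fc receptors and C-type lectin receptors had the largest share called (19 of 25 compared), followed by complement (6 of 10), and by phagocytosis and scavenging (9 of 18), the oxidase (3 of 6) and chemokine receptors (3 of 6). Adhesion and surface genes gave 10 of 22, chemokines 7 of 17, signalling and cytoskeleton 16 of 45, transcription factors 7 of 24, innate sensing 3 of 14, cytokine receptors 4 of 20 and the lysosome 5 of 25. None of the 9 cytokine ligands compared was called (beside 2.04% and 2.34% of all genes), in a list limited to ligands of the listed receptors. Cytokine genes outside it were called, among them Il15 and Ebi3, which were 15.1-fold (6.52 to 43.1) and 4.12-fold (2.52 to 6.97) higher at Days 8 and 13 and were chosen after their values were seen.

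Among transcription factors, 7 of 24 were higher at Days 8 and 13 (29.2%, beside 2.04% of all genes). In the other direction, 1 was higher at Days 10 and 15 (4.17%, beside 2.34%). Lyl1, a basic helix-loop-helix factor of blood progenitors (chr8:84701457-84704715), had 362 and 121.1 normalized counts at Days 8 and 13, against no read at Days 10 and 15. Nr1h3, which encodes the liver X receptor alpha, a sterol sensor of macrophages, had 388 and 81.1 normalized counts at Days 8 and 13, against no read at Days 10 and 15. Irf8, a partner of PU.1 in monocytes, had 613 and 314 normalized counts at Days 8 and 13, against 0 at Day 10 and 25 at Day 15. All 3 followed Spi1 in being higher at Day 8 than at Day 13. Against the floor of 3 reads in the library where it is worth most, Lyl1 was at least 52.0-fold and Nr1h3 at least 34.8-fold higher at Days 8 and 13, and Irf8 was 12.6-fold higher (9.12 to 17.7). The other called factors were Fli1, Batf and Maf, with gaps of 2.63 to 2.99 on the log2 scale. Runx1, a factor of blood stem cells that other tissues also use, had 1288 and 322 normalized counts at Days 8 and 13, against 791 and 312 at Days 10 and 15, so its sides overlapped. Spic, an Ets factor of iron-recycling macrophages that mouse ESCs also express, ran the other way. It had no read at Day 8 and 95.7 normalized counts at Day 13, against 242 at Day 10 and 255 at Day 15, and was 2.52-fold higher at Days 10 and 15 (2.00 to 3.20).

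Cytokine receptors were called in 4 of 20 genes compared, and the receptor most closely tied to macrophages was not among them. Csf1r, the receptor of colony-stimulating factor 1, had 4028 and 1569 normalized counts at Days 8 and 13, against 247 at Day 10 and 922 at Day 15. Its sides did not overlap, but the nearest pair of libraries, Days 13 and 15, differed by 1.70-fold (1.59 to 1.82), under the 2-fold of the rule. Csf1, which encodes a ligand of that receptor, had 119 and 62.5 normalized counts at Days 8 and 13, against 130.5 and 253 at Days 10 and 15. Of the called receptors, Il21r, the interleukin 21 receptor, had 86.5 and 188 normalized counts at Days 8 and 13, against no read at Days 10 and 15 (at least 37.1-fold). Csf2rb2, a beta chain of the interleukin 3 receptor, had 357 normalized counts at Day 8 and 14.7 at Day 13, against no read at Days 10 and 15, a lower bound of 6.29-fold that rests on 15 reads at Day 13. Il10rb, a chain of the interleukin 10 receptor, and Tnfrsf11a, the receptor RANK, were 2.85-fold (2.44 to 3.32) and 2.31-fold (1.74 to 3.08) higher at Days 8 and 13. Csf1r, Runx1 and Csf1 are named for their role and were chosen after their values were seen.

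The complement genes were led by the 3 chains of C1q, which share 1 stretch of chromosome 4 (chr4:136880129-136898803). C1qa had 1737 and 1941 normalized counts at Days 8 and 13, against 26.4 and 207 at Days 10 and 15. C1qc had 1932 and 1637 normalized counts at Days 8 and 13, against 47.4 and 103 at Days 10 and 15. All 3 chains were lowest at Day 10 and intermediate at Day 15, so that Day 10 and Day 15 also differed from each other. C1qa was 8.38-fold (7.49 to 9.40) and C1qc 15.9-fold (13.6 to 18.7) higher at Days 8 and 13. The receptors followed: Itgam, a subunit of complement receptor 3, was 5.62-fold higher (4.36 to 7.32), C3ar1, the receptor of the C3a fragment, 4.32-fold (3.64 to 5.16) and C5ar1, the receptor of C5a, 3.31-fold (2.88 to 3.8). Complement components made largely outside macrophages were not called. C3 had no read at Day 8 and 113 normalized counts at Day 13, against 119 at Day 10 and 4.64 at Day 15.

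Of the Fc and C-type lectin receptors with their adaptors, 19 of 25 were higher at Days 8 and 13 and none was higher at Days 10 and 15, with gaps of 1.47 to 8.08 on the log2 scale. Clec4d, a C-type lectin receptor of fungal and mycobacterial glycolipids (chr6:123262111-123275265), had 269 and 493 normalized counts at Days 8 and 13, against no read at Days 10 and 15. Its neighbour Clec4e, the receptor Mincle (chr6:123281789-123289870), had 582 and 249 normalized counts at Days 8 and 13, against no read at Days 10 and 15. Fcgr1, the high-affinity IgG receptor (chr3:96282909-96293969), had 1273 and 171 normalized counts at Days 8 and 13, against 0.777 at Day 10, which is 1 read, and none at Day 15. These 3 genes had next to no reads on the Days 10 and 15 side. Clec4d was at least 116-fold and Clec4e at least 107-fold higher at Days 8 and 13, and the ratio for Fcgr1 was 220.1 with a counting interval of 39.0 to 8742. The adaptor subunits of the list, Tyrobp and Fcer1g, were higher as well. Tyrobp (DAP12) had 1462 and 1137 normalized counts at Days 8 and 13, against 31.1 and 54.6 at Days 10 and 15. Fcer1g had 3152 and 1212 normalized counts at Days 8 and 13, against 106 and 85.3 at Days 10 and 15. Trem2, a lipid receptor that uses DAP12, had 1053 and 1317 normalized counts at Days 8 and 13, against 39.6 and 59.2 at Days 10 and 15. The adaptors and Trem2 thus had reads in all 4 libraries compared (none of them had a read at Day 2), and the gaps came to 20.8-fold (16.9 to 26) for Tyrobp, 11.4-fold (9.54 to 13.7) for Fcer1g and 17.8-fold (14.5 to 22.0) for Trem2. Members of this list such as the Clec4a genes, the Lilrb4a and Lilr4b pair and the Cd300 genes belong to families of similar sequence, and their single values are uncertain.

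**Figure D2:**
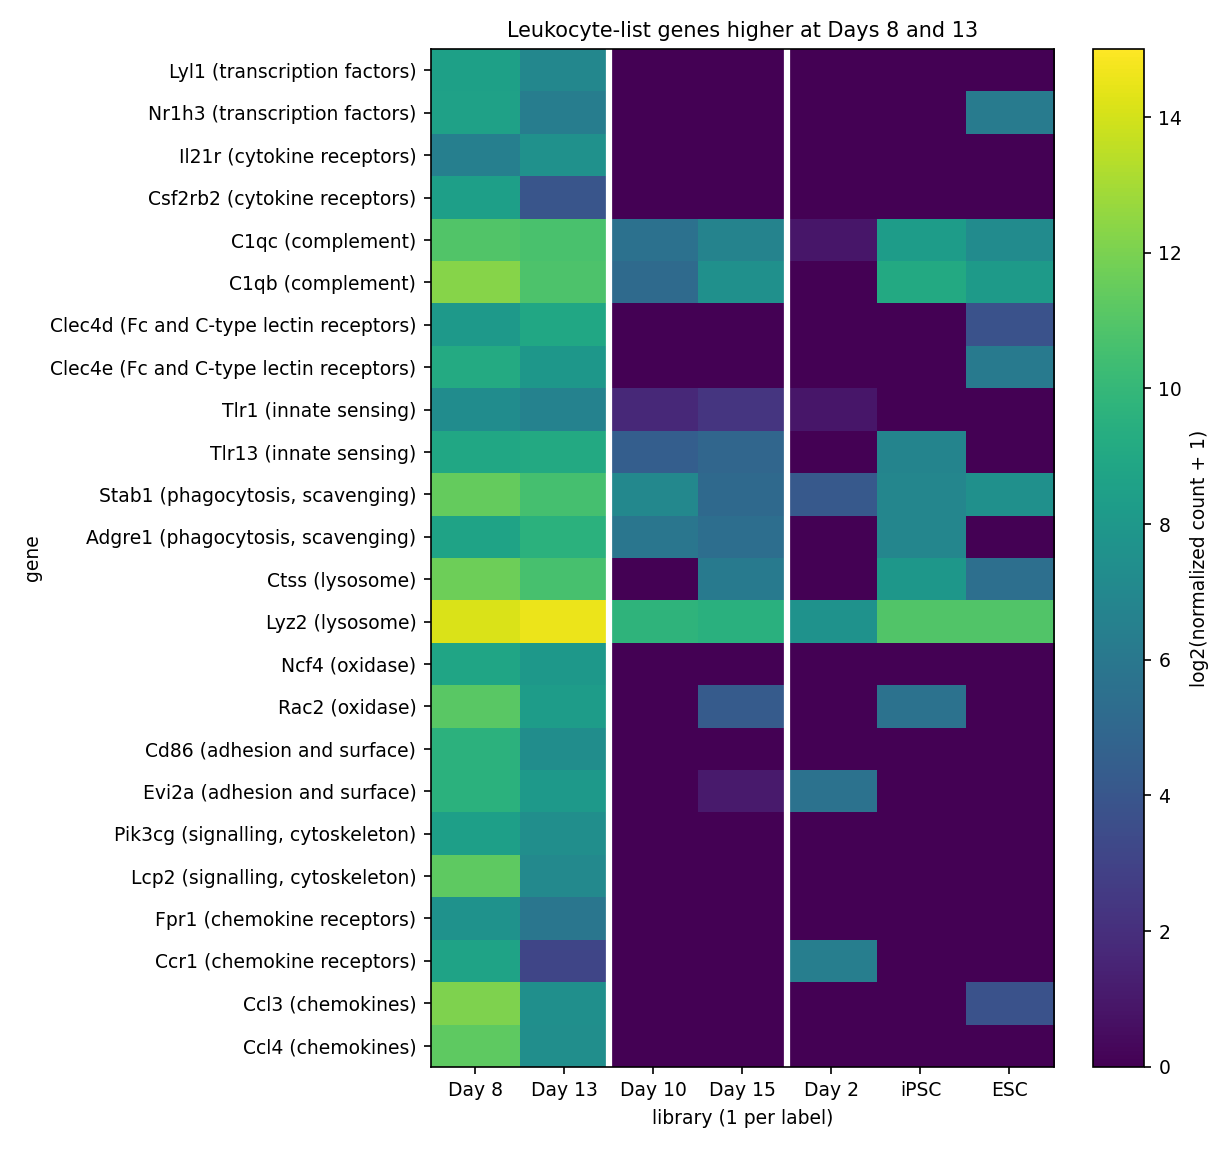
Heat map of log2(normalized count + 1) for up to 2 called genes of each leukocyte list and of the chemokines, those with the largest gap, with 1 row per gene and 1 column per library. White lines separate Days 8 and 13, Days 10 and 15, and the 3 libraries outside the split. Lyz2 is the brightest row, with 18221 and 24224 normalized counts at Days 8 and 13, against 850.4 and 746 at Days 10 and 15, and darkest cells mark genes listed at 0.

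Phagocytosis and scavenging genes were higher at Days 8 and 13 in 9 of 18 compared. Mrc1, the mannose receptor, had 5784 and 2907 normalized counts at Days 8 and 13, against 433 at Day 10 and 30.2 at Day 15. Stab1, a scavenger receptor of macrophages and sinusoidal endothelium, had 2839.8 and 1495 normalized counts at Days 8 and 13, against 126 and 33.7 at Days 10 and 15. Adgre1, which encodes the macrophage antigen F4/80, had 422 and 764 normalized counts at Days 8 and 13, against 57.5 and 42.4 at Days 10 and 15. Here Day 10 was above Day 15, the reverse of the order of the C1q chains. Mrc1 was 6.71-fold (6.13 to 7.36), Stab1 11.9-fold (10.1 to 14.1) and Adgre1 7.34-fold (5.74 to 9.50) higher at Days 8 and 13. Apoe, a lipid carrier of macrophages that pluripotent cells also express, had 1077 and 36489 normalized counts at Days 8 and 13, against 17380.1 and 18458 at Days 10 and 15. Its sides overlapped, with Day 8 the lowest of the 4. Some other scavenger receptor genes had few reads. Vsig4, a complement receptor of liver macrophages, and Marco, a bacterial scavenger receptor, had reads at Day 13 alone of the 4 libraries (50.8 and 29.3 normalized counts). Cd163 had no read at Day 8 and 16.6 normalized counts at Day 13, against no read at Day 10 and 15.1 at Day 15.

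The lysosome list showed which of its genes separated the sides. Ctss, a cathepsin of antigen-presenting cells (chr3:95526786-95556403), had 3346 and 1620.4 normalized counts at Days 8 and 13, against no read at Day 10 and 67.9 at Day 15. It was 23.9-fold higher at Days 8 and 13 (19.8 to 29.0). Broadly expressed cathepsins were ordered the same way with small gaps: Ctsb was 1.16-fold (1.14 to 1.17) and Ctsd 1.15-fold (1.12 to 1.17) higher, and neither was called. Lipa, the lysosomal acid lipase, and Lgmn, the protease legumain, lay just past the threshold at 2.06-fold (1.89 to 2.24) and 2.01-fold (1.93 to 2.10). Of the 25 lysosomal genes, 16 had overlapping sides, beside 11652 of all 15577 genes compared. The other 9 were ordered toward Days 8 and 13, with called genes included, beside 1751 of all genes.

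The phagocyte oxidase, the enzyme that makes superoxide, was split within itself. Ncf4, a cytosolic subunit (chr15:78244801-78262580), had 444 and 251 normalized counts at Days 8 and 13, against no read at Days 10 and 15 (at least 108-fold). Rac2, its leukocyte GTPase, had 2245 and 315 normalized counts at Days 8 and 13, against 0 and 19.2 at Days 10 and 15 (16.4-fold, 11.5 to 24.3). Ncf1, another cytosolic subunit, had 810.3 and 94.7 normalized counts at Days 8 and 13, against 0 and 21.5 at Days 10 and 15 (4.41-fold, 2.99 to 6.63). Cybb, the catalytic membrane subunit, did not follow these: it had 16.3 and 273 normalized counts at Days 8 and 13, against 144 and 41.2 at Days 10 and 15, so the sides overlapped. Cyba, the other membrane subunit, was ordered like the called genes but by less than 2-fold (1.70-fold, 1.61 to 1.78).

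Innate sensing genes were called in 3 of 14 compared. The Toll-like receptor gene Tlr13, which senses bacterial ribosomal RNA and lies on the X (chrX:106143204-106160493), had 492 and 557 normalized counts at Days 8 and 13, against 21 and 29.6 at Days 10 and 15. It was 16.6-fold higher at Days 8 and 13 (12.5 to 22.6), the sides were far apart, and the days of each side lay close together. Tlr1 was 24-fold higher (11.2 to 61.3) and the lipopolysaccharide co-receptor Cd14 3.30-fold (2.71 to 4.03). Tlr4, the lipopolysaccharide receptor itself, had reads at Day 13 alone of the 4 libraries (44.0 normalized counts), and Tlr2 had overlapping sides.

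Pan-leukocyte surface and signalling genes were higher at Days 8 and 13 in 10 of 22 and 16 of 45 compared. Ptprc, which encodes CD45 and marks nearly all white blood cells, had 2369.8 and 204 normalized counts at Days 8 and 13, against 67.6 and 22.6 at Days 10 and 15. Itgb2, the shared beta chain of leukocyte integrins, had 1657 and 296 normalized counts at Days 8 and 13, against 0 and 29.6 at Days 10 and 15. Cd86, a co-stimulatory ligand for T cells (chr16:36603869-36666081), had 787 and 160.2 normalized counts at Days 8 and 13, against no read at Days 10 and 15. In all 3 the Day 8 value was several times the Day 13 value. Ptprc was 3.02-fold (2.34 to 3.93), Itgb2 10.0-fold (7.41 to 13.7) and Cd86 at least 68.8-fold higher at Days 8 and 13. Among signalling genes, Plek, the pleckstrin of platelets and leukocytes, had 1487 and 1165 normalized counts at Days 8 and 13, against 0 and 41.2 at Days 10 and 15. Lcp2, the adaptor SLP-76 (chr11:34046920-34092295), had 2479.9 and 133 normalized counts at Days 8 and 13, against no read at Days 10 and 15. Pik3cg, the leukocyte catalytic subunit of phosphoinositide 3-kinase (chr12:32173473-32208659), had 355 and 172 normalized counts at Days 8 and 13, against no read at Days 10 and 15. Their lower bounds were 57.0-fold for Lcp2 and 73.8-fold for Pik3cg, and Plek was 28.3-fold higher (22.2 to 36.4).

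Chemokines were called in 7 of 17 genes compared and their receptors in 3 of 6. Ccl3, a chemokine of activated macrophages (chr11:83647844-83649355), had 4402 and 174 normalized counts at Days 8 and 13, against no read at Days 10 and 15. Ccl4, its neighbour (chr11:83662584-83664683), had 2466 and 172 normalized counts at Days 8 and 13, against no read at Days 10 and 15. Ccl2, the main monocyte attractant, had 11384 and 997 normalized counts at Days 8 and 13, against 141 and 58.1 at Days 10 and 15. Each of these was more than 10 times higher at Day 8 than at Day 13, with Ccl3 at least 74.6-fold, Ccl4 at least 73.8-fold and Ccl2 7.09-fold (6.05 to 8.36) higher at Days 8 and 13. Pf4, a chemokine of megakaryocytes and some tissue macrophages, ran the other way within its side, with 998 and 1942 normalized counts at Days 8 and 13, against 38.8 and 22.6 at Days 10 and 15. Ccl8, another monocyte attractant, had 2019 normalized counts at Day 13 and no read at Day 8, Day 10 or Day 15, and was therefore not called. Of the receptors, Fpr1, the receptor of bacterial formyl peptides, had 198 and 57.6 normalized counts at Days 8 and 13, against no read at Days 10 and 15 (at least 24.7-fold).

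Markers of other blood cells were compared in small numbers. Over all genes compared, 2.04% were called higher at Days 8 and 13 and 2.34% at Days 10 and 15. At those shares lists this small would hold few called genes or none, so nothing is read from the numbers called in this paragraph. None of the 3 neutrophil, 2 mast cell, 5 dendritic cell, 6 osteoclast, 3 T and NK cell, 4 B cell and 4 erythroid genes compared was called in either direction. The 8 neutrophil genes in the table summed to 1.63 and 113 normalized counts at Days 8 and 13, against 2.33 and 328 at Days 10 and 15. Of the 3 megakaryocyte genes compared, 1 was called, the chemokine Pf4 described above, and the 5 in the table summed to 998 and 2338 normalized counts at Days 8 and 13, against 282 and 194 at Days 10 and 15. At Day 8, 7 of the 8 neutrophil genes had no read, as did 9 of the 10 T and NK cell genes in the table. Of the monocyte markers, 1 of 7 was called: F13a1, coagulation factor XIII subunit A, had 463 and 1914 normalized counts at Days 8 and 13, against 73.8 and 0 at Days 10 and 15. Of the microglia markers, 1 of 9 was called: Fcrls had 2512 and 1648 normalized counts at Days 8 and 13, against 66.0 and 71.4 at Days 10 and 15. Few MHC class II genes were compared. Cd74, the invariant chain, was the 1 of 5 called, at 4.01-fold (2.75 to 5.97), and the class II chain H2-Eb1 had 712 and 514 normalized counts at Days 8 and 13, against 648 and 492 at Days 10 and 15.

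Markers of the non-blood cells that the sorted population could hold were set beside the leukocyte genes. All 31 fibroblast genes compared had overlapping sides, as did 11652 of all 15577 genes compared. Their summed values were 161901 and 59698 normalized counts at Days 8 and 13, against 35680 and 130126 at Days 10 and 15. Day 8 and Day 15 thus had the most fibroblast signal, in contrast to the leukocyte lists. Epithelial genes (25 compared) were called in neither direction, with sums of 229572 and 161902 normalized counts at Days 8 and 13, against 224163 and 110456 at Days 10 and 15. Of 10 endothelial genes compared, 1 was called higher at Days 8 and 13 (10%, beside 2.04% of all genes). It was Esam, a junction protein of endothelium and platelets, at 3.31-fold (2.10 to 5.36). Proliferation (29 genes), glycolysis (22) and immediate early genes (19) were called in neither direction. At shares of 2.04% and 2.34% over all genes compared, lists of this size would hold few called genes or none. Nothing is read from the numbers called. The part of these cell types in the split was not tested.

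Interferon-induced genes were higher at Days 8 and 13 in 5 of 29 compared (17.2%, beside 2.04% of all genes) and higher at Days 10 and 15 in none (beside 2.34%). Ifi27l2a, an interferon-induced mitochondrial protein, had 1089 and 3185 normalized counts at Days 8 and 13, against 184 and 124 at Days 10 and 15. Psmb8 and Psmb9, subunits of the immunoproteasome, were 2.70-fold (2.40 to 3.04) and 2.47-fold (2.15 to 2.84) higher, and Ifih1, a sensor of viral RNA, 5.99-fold (3.71 to 10.1). The gap of Mx1, an antiviral GTPase, rests on 9 reads at Day 8 and 4 at Day 15, and its counting interval of 0.883 to 14.1 includes 1. Core genes of the response such as Ifit1 and Isg15 had no read at Day 8 and were not called, so the list was not separated as a whole.

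Of the 318 genes higher at Days 8 and 13, 85 (26.7%) were in the leukocyte lists, 101 were in any list and 217 were in none. The 15 with the largest gaps included Hk3, the hexokinase of myeloid cells (chr13:55005985-55021385), with 635 and 298 normalized counts at Days 8 and 13, against no read at Days 10 and 15. It was at least 128-fold higher at Days 8 and 13, and its gap was the largest of the 318. Also among the 15 were Ms4a6b, a tetraspan protein of leukocytes (at least 53.7-fold), and Evi2a (ratio 241, interval 66.0 to 1996). Evi2a lies inside an intron of Nf1, so its reads cannot be told apart from those of unspliced Nf1. Not all 15 were leukocyte genes: Anks6, a protein of primary cilia, had 431 and 138 normalized counts at Days 8 and 13, against no read at Days 10 and 15, and Cdhr3, a cadherin-like protein of ciliated airway cells, had 257 and 126, against no read. Gm8995, annotated as a transcribed pseudogene, was at least 43.6-fold higher at Days 8 and 13. The 233 members in no leukocyte list were mixed. At Day 2, 56 of them (24%) were at or above the higher side, against 6 of the 85 leukocyte-list genes (7.06%). The genes named next were chosen after their values were seen. Nrp1, a semaphorin and VEGF co-receptor, had 1559 and 661 normalized counts at Days 8 and 13, against 24.1 and 286 at Days 10 and 15, and 13082 at Day 2. Pmp22, a membrane protein of Schwann cells and fibroblasts, had 2739 and 1710.2 normalized counts at Days 8 and 13, against 133 and 468 at Days 10 and 15, and 5961 at Day 2. Mical2 and Rhoj were likewise highest at Day 2, at 7121 and 3845 normalized counts. Other members were products of immune cells. Arg1, the arginase of alternatively activated macrophages, had 582 and 1099 normalized counts at Days 8 and 13, against 118 and 87.1 at Days 10 and 15. Osm, the cytokine oncostatin M, had 852 and 400.5 normalized counts at Days 8 and 13, against 24.9 and 80.7 at Days 10 and 15. Il23a, a subunit of interleukin 23, had 149 and 169 normalized counts at Days 8 and 13, against 14.0 and 23.2 at Days 10 and 15. Arg1, Osm and Il23a were 4.93-fold (4.13 to 5.91), 4.96-fold (4.08 to 6.06) and 6.40-fold (4.52 to 9.25) higher at Days 8 and 13.

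Some called genes followed each other along a chromosome when only the compared genes were counted. Of the 314 genes of Days 8 and 13 with 1 GENCODE position, 46 (14.6%) had another called gene of the same side as the next compared gene, in 20 runs. Genes that were not compared are skipped, so such neighbours can lie far apart. Eepd1 and Glb1l2 spanned 1325 kb, and Wfdc17 and Wfdc18 spanned 7.36 kb. The longest run held 5 genes, Clec4a3, Clec4a2, Clec4n, Clec4d and Clec4e (chr6:122952515-123289870). Runs of 3 included the C1q chains and the chemokines Ccl6, Ccl3 and Ccl4 (chr11:83587882-83664683). Of the 355 positioned genes of Days 10 and 15, 17 (4.79%) had such a neighbour, in 8 runs of at most 3 genes. The share that as many genes taken without regard to position would give was not tested. Neighbouring members of a gene family share sequence, so these runs are not independent counts. Genes annotated as antisense made up 17 of the 314 (5.41%) and 7 of the 355 (1.97%), beside 206 of the 15312 genes compared (1.35%). Since the library kit does not mark strand their reads cannot be told apart from those of the genes they overlap.

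The 365 genes higher at Days 10 and 15 looked different in level and in detection. Their highest value had a median of 129 normalized counts, against 449 for the 318 genes of Days 8 and 13 and 934 for all genes compared. At Day 8, 300 of the 365 (82.2%) had no read, and at Day 13, 98 (26.8%) had none. Of the 318 genes, 109 (34.3%) had no read at Day 10 and 80 (25.2%) had none at Day 15. With reads required in all 4 libraries, 188 genes were higher at Days 8 and 13 and 61 at Days 10 and 15. Both libraries of the lower side were at 0 for 59 of the 318 and 94 of the 365. Day 8 was the library in which most of the 365 had no read, and beyond that requirement the part of its low detection in their count was not tested. Leaving out 1 library also loosens the rule, and it moved both totals by over 1.5 times. The genes higher at Days 8 and 13 then numbered 741 without Day 8, 1838 without Day 13, 1127 without Day 10 and 848 without Day 15. The genes higher at Days 10 and 15 numbered 564, 4075, 1551 and 597 in the same order.

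**Figure D3:**
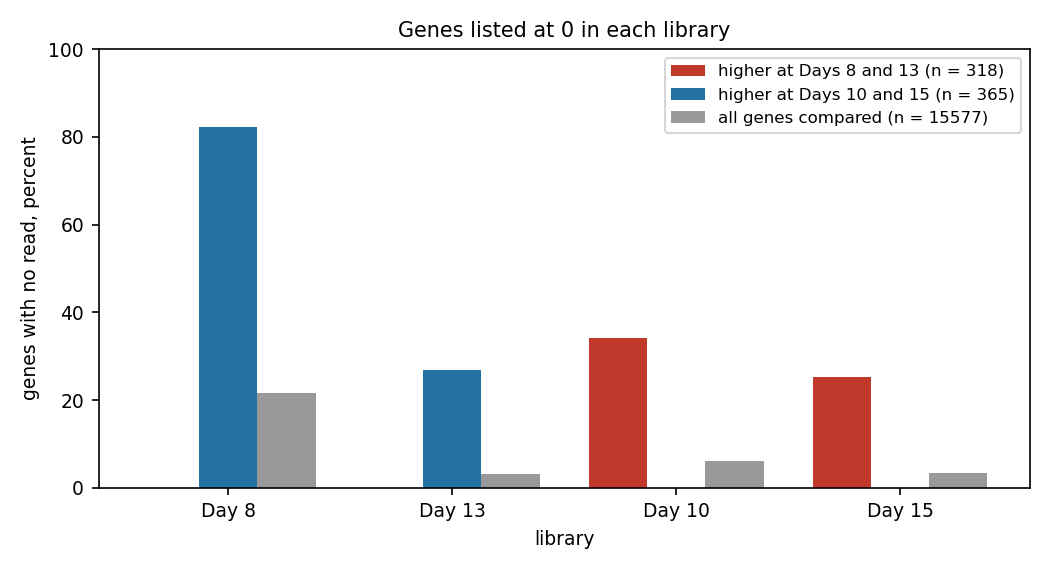
Percent of genes with no read in each of the 4 libraries, for the 318 genes higher at Days 8 and 13 (red), the 365 genes higher at Days 10 and 15 (blue) and all 15577 genes compared (grey). The Day 8 bar of the 365 genes stands at 82.2%, beside 21.6% of all genes compared in that library.

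The plot of genes with no read shows the zeros of each set in the libraries where it was lower. Values within a side differed as well. Of the 318 genes, 186 were higher at Day 8 than at Day 13 by at least 1 on the log2 scale and 11 were higher at Day 13, with a median difference of 1.40. Of the 365, 155 were higher at Day 15 than at Day 10 by at least 1 and 37 were higher at Day 10. As shares, Day 8 was higher by at least 1 in 58.5% of the 318 and Day 13 in 3.46%, whereas over all genes compared Day 8 was higher in 19.4% and Day 13 in 34.3%. Day 15 was higher by at least 1 in 42.5% of the 365 and Day 10 in 10.1%, whereas over all genes compared Day 15 was higher in 21.4% and Day 10 in 15.0%. The order within Days 8 and 13 was thus the reverse of that over all genes, and the order within Days 10 and 15 was the same as over all genes. By the rule all 318 had reads at Day 8, whereas 3372 of the genes compared (21.6%) had none there. Both comparisons use the values that chose the members, so nothing is read from them.

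The 15 largest gaps toward Days 10 and 15 belonged to genes with at most 1 read in either library of Days 8 and 13. Myo18b, an unconventional myosin of striated muscle (chr5:112688876-112896362), had no read at Days 8 and 13, against 231 and 154 normalized counts at Days 10 and 15. Fzd9, a Wnt receptor (chr5:135248938-135251230), had no read at Days 8 and 13, against 116 and 206 normalized counts at Days 10 and 15. Dsc3, a desmosomal cadherin of the epidermis, had no read at Days 8 and 13, against 154 and 115 normalized counts at Days 10 and 15. At least 52.5-fold, 39.5-fold and 39.2-fold separated the sides in these genes, less than the bounds of Hk3 or Clec4d. Gpr132, a G protein-coupled receptor, had no read at Days 8 and 13, against 105 and 116 normalized counts at Days 10 and 15. Slc30a2, a zinc transporter, had no read at Day 8 and 0.977 normalized counts (1 read) at Day 13, against 139.8 and 283 at Days 10 and 15. Its ratio was 143, with an interval of 25.4 to 5684. Msx2 and Isl1, homeobox factors of limb, craniofacial and cardiac development, had no read at Days 8 and 13. Msx2 had 77.7 and 199 normalized counts at Days 10 and 15, and Isl1 had 48.9 and 214. Chrm4, Obox6, P2rx2, Slc44a5, Arsj, Gnaz and the RNAs 4921525O09Rik and Gm45819 completed the 15, with lower bounds of 17.0-fold to 25.4-fold. Magea8 tied with Isl1 at a bound of 16.7-fold and belongs to the Magea family on the X, whose members share sequence. Of the 16 epidermal list genes compared, 1 was called higher at Days 10 and 15 (6.25%, beside 2.34% of all genes), and 14 had overlapping sides. Another 1 was ordered toward Days 8 and 13 with a gap too small to be called. In a list this short, 1 gene is not read as a result about the list. The keratin gene Krt14 had overlapping sides, with 858 and 2497 normalized counts at Days 8 and 13, against 1515 and 1642 at Days 10 and 15.

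**Figure D4:**
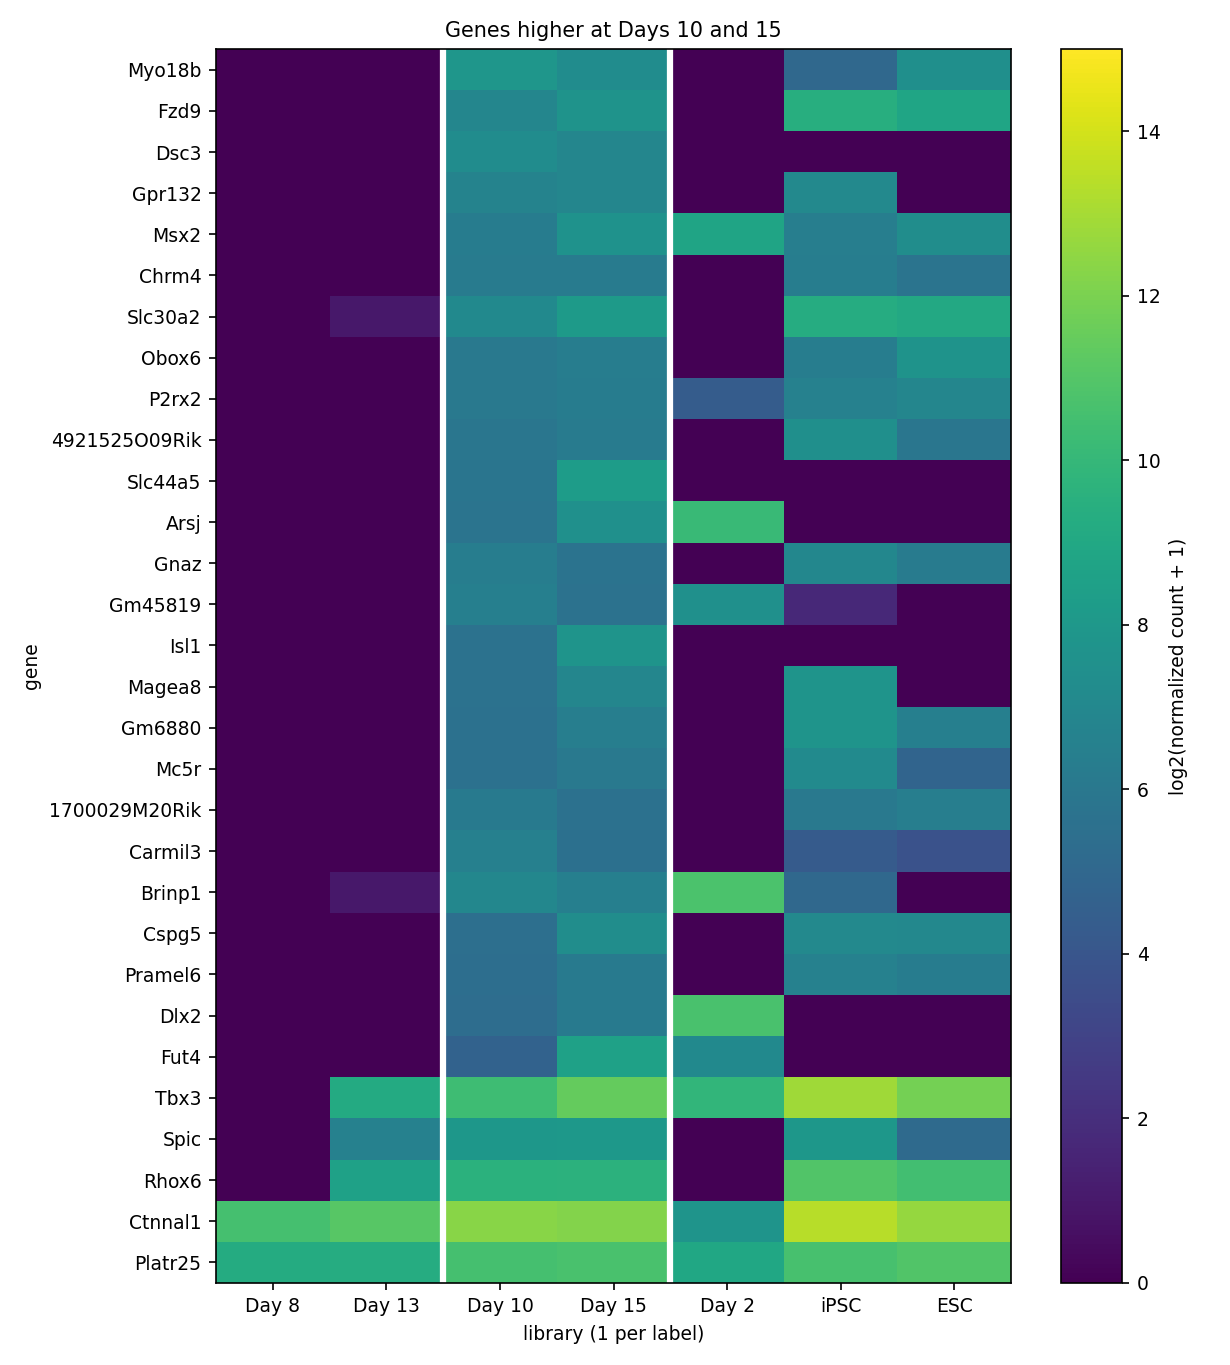
Heat map of log2(normalized count + 1) for the 24 genes with the largest gap toward Days 10 and 15, followed by Fut4, Tbx3, Spic, Rhox6, Ctnnal1 and Platr25, with 1 row per gene and 1 column per library. White lines separate Days 8 and 13, Days 10 and 15, and the 3 libraries outside the split. The left pair of columns is at 0 or at 1 read for the 24 genes, and Ctnnal1 and Platr25 have reads in all 7 libraries.

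Pluripotency genes were called at about the share of all genes compared. Of 41 compared, 1 was called higher at Days 10 and 15 (2.44%, beside 2.34% of all genes), Tbx3, a T-box factor of naive pluripotency, which had no read at Day 8 and 566 normalized counts at Day 13, against 1301 at Day 10 and 2820.2 at Day 15. A further 10 were ordered the same way with smaller gaps, for 11 of 41 in all, beside 14.0% of all genes with a gap of any size. None was ordered toward Days 8 and 13, beside 11.2% of all genes, and 30 had overlapping sides. Nothing is read from these shares either. Nanog, a core pluripotency factor, had 5019 and 6392 normalized counts at Days 8 and 13, against 8155 and 13106 at Days 10 and 15, a difference of 1.28-fold (1.24 to 1.32) between Days 13 and 10. Pou5f1, which the reprogramming cassette also supplies, had 18033 and 15943 normalized counts at Days 8 and 13, against 21944 and 13056 at Days 10 and 15. Its sides overlapped. Among 29 germline genes, 1 was called higher at Days 10 and 15 (3.45%, beside 2.34% of all genes). It was Rhox6, an X-linked homeobox gene of germ cells and placenta. Rhox6 had 0 and 377 normalized counts at Days 8 and 13, against 778 and 784 at Days 10 and 15 (2.06-fold higher at Days 10 and 15, 1.83 to 2.33). At Day 8, 24 of the 30 germline genes in the table had no read, as against 0 of 30 at Day 13, so Day 8 and Day 13 were far apart on this list.

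Since SSEA1 was the sorting antigen, the enzymes that build it were examined. Fut4, a fucosyltransferase that can make the SSEA1 glycan, had no read at Days 8 and 13, against 25.6 and 376 normalized counts at Days 10 and 15 (at least 8.75-fold). Fut9, the fucosyltransferase that mouse ESCs mainly use for it, had 631 and 162 normalized counts at Days 8 and 13, against 377 and 355 at Days 10 and 15. Fut9 thus had reads in all 4 sorted libraries with overlapping sides. Fut4 was the 1 of 10 genes of this list called higher at Days 10 and 15 (10%, beside 2.34% of all genes). In a list this short, 1 gene is not read as a result about the list. Mmp19, a matrix metalloprotease, was the 1 of 11 called in its list (9.09%, beside 2.34% of all genes), with 0 and 2.93 normalized counts at Days 8 and 13, against 49.7 and 98.1 at Days 10 and 15. Mmp16, a membrane-bound metalloprotease outside that list, was called the other way, with 456 and 120.1 normalized counts at Days 8 and 13, against 0 and 8.71 at Days 10 and 15. None of the 14 X-inactivation genes compared was called, beside 2.04% of all genes higher at Days 8 and 13 and 2.34% at Days 10 and 15. Xist, the RNA that silences the X, had 7030.1 and 4486 normalized counts at Days 8 and 13, against 4387 and 8256 at Days 10 and 15. The sides of Xist overlapped. On the X lay 8 of 314 positioned genes of Days 8 and 13 (2.55%) and 23 of 355 of Days 10 and 15 (6.48%), beside 601 of 15312 genes compared (3.93%).

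Few genes of Days 10 and 15 were both well expressed and present in every library. Ctnnal1, the catenin-like protein alpha-catulin, had 1552 and 2226 normalized counts at Days 8 and 13, against 5085 and 4842 at Days 10 and 15. Platr25, a noncoding transcript named for its link to pluripotency, had 591 and 626 normalized counts at Days 8 and 13, against 1538 and 1648 at Days 10 and 15. In both, the days of a side lay close together, and the sides differed by 2.18-fold (2.08 to 2.28) and 2.46-fold (2.25 to 2.69). These genes were chosen after their values were seen, as were the developmental factors that follow. Nkx2-1, a homeobox factor of lung and thyroid, had 0 and 1.95 normalized counts at Days 8 and 13, against 59.0 and 157 at Days 10 and 15. Cdx2, a trophoblast and gut factor, and Nkx2-3, a gut and spleen factor, had no read at Days 8 and 13. Cdx2 had 21.7 and 265 normalized counts at Days 10 and 15, and Nkx2-3 had 34.2 and 280.4. Day 15 was the higher library in all 3.

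At the threshold itself, Lemd3, Wnt7a and Ccdc126 were just inside for Days 8 and 13 (gaps of 1.00 to 1.01), and Crebzf, Rtl8a and H2-Q4 were just outside (0.99 to 1.00). For Days 10 and 15, Nap1l2 and Socs5 were just inside (1.00) and Gm14276, Fbxl7 and Ppp1r3c just outside (0.99). Lemd3 had 302 and 189 normalized counts at Days 8 and 13, against 94.0 and 91.1 at Days 10 and 15, and Crebzf had 723 and 247, against 123 and 82.4. The genes named at the Days 10 and 15 threshold had no read at Day 8.

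The 3 libraries that the split did not use gave the levels of the called genes outside the compared days. Of the 318 genes of Days 8 and 13, 195 were at or below the lower side at Day 2, 198 in iPSCs and 191 in ESCs, and 62, 10 and 37 reached the higher side in these libraries. Of the 85 leukocyte genes among them, 54 had no read at Day 2, 26 none in iPSCs and 32 none in ESCs. At or below the lower side were 65 at Day 2, 44 in iPSCs and 48 in ESCs, and 14, 39 and 31 lay between the sides. The higher side was reached by 6, 2 and 6. Lyz2 had 197 normalized counts at Day 2, 1949 in iPSCs and 1915 in ESCs, so the iPSC and ESC libraries lay above Days 10 and 15 and below Days 8 and 13. C1qb had no read at Day 2, 541 normalized counts in iPSCs and 293 in ESCs, and Spi1 had none, 108 and 172. Both followed the same order of Day 2 at 0 and iPSCs and ESCs between the sides. Ccl2, which fibroblasts also make, did not follow the order of these 2 markers and had 4093 normalized counts at Day 2. Of the 365 genes of Days 10 and 15, 113 reached their higher side at Day 2, 172 in iPSCs and 140 in ESCs, and 201, 117 and 152 were at or below the lower side. These counts cannot be set directly against those of the 318. A gene reached the higher side when it was at or above the lowest value of that side, and the sets differed in level. The median of the highest value was 449 normalized counts in the 318 and 129 in the 365. Over all genes compared the iPSC median was 438. Rhox6, Tbx3, Ctnnal1, Fzd9 and Slc30a2 were higher in both iPSCs and ESCs than at Days 10 and 15, whereas Dsc3, Isl1, Nkx2-3 and Slc44a5 had no read in either.

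**Figure D5:**
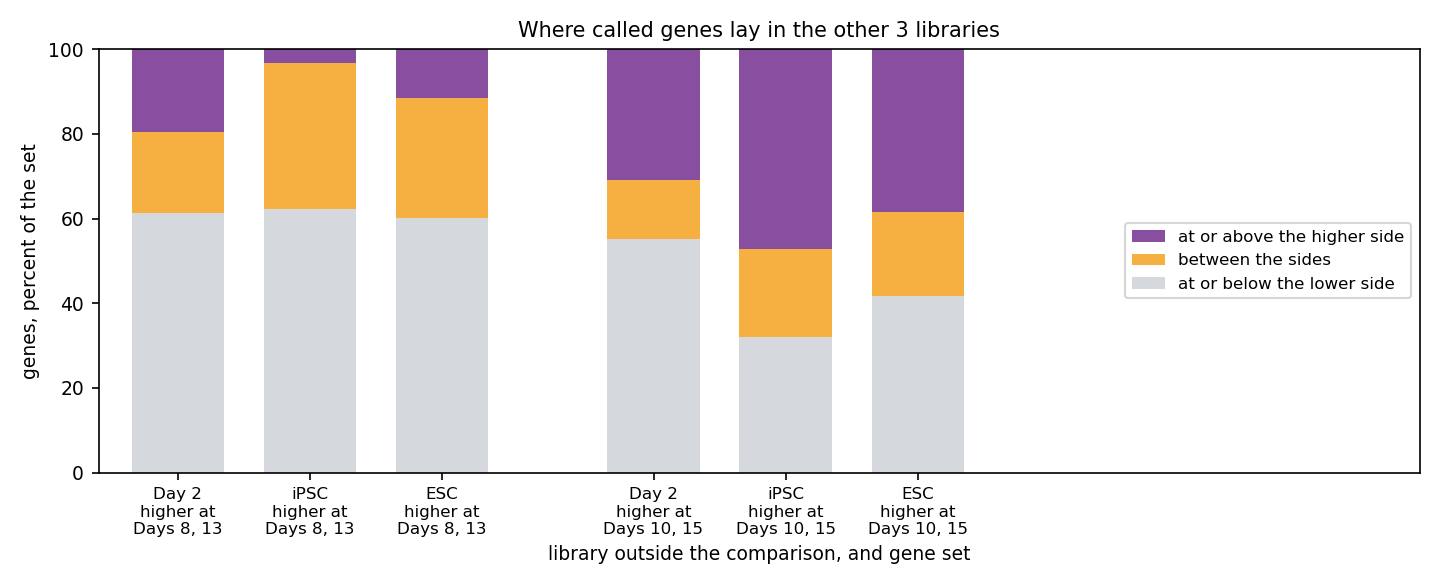
Percent of the 318 genes higher at Days 8 and 13 (left 3 bars) and of the 365 genes higher at Days 10 and 15 (right 3 bars) that lay at or above the higher side, between the sides, or at or below the lower side in the Day 2, iPSC and ESC libraries. In iPSCs 10 of the 318 genes and 172 of the 365 genes lay at or above the higher side. The sets differed in level: the highest value had a median of 449 normalized counts in the 318 and 129 in the 365. The level to be reached was the lowest value of the higher side, whose median is not given here.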

How the data were processed

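The table the authors deposited is on the log2 scale. Each value is the logarithm of a gene's read count after division by a library-wide size factor, with 1 added. The submitters' processing notes name FastQC, STAR 2.5.3a and featureCounts, with mm10 (GRCm38.p5) as the build, and the sources used here do not say how size factors were estimated. With the logarithm undone, values came out as whole reads, within 0.01 reads, for 100% of values in every library. Normalized counts in the text are the deposited values with the logarithm undone and 1 subtracted.

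Days 8 and 13 were compared with Days 10 and 15, with 1 library per label, so no replicates, no test and no p-value. The members, the split and the gene lists were chosen with earlier results of these data known. A fold against libraries without reads uses a floor of 3 reads per library (1.74 to 2.93 normalized counts in the 4 libraries) and takes the higher floor of the side. Named genes are the 15 with the largest gap in each direction, Lyz2, C1qb and Spi1, list members by largest gap or at 0, and 3 genes on each side of the threshold. Other genes, those given as members of a list that did not separate among them, were chosen after their values were seen. A few genes that the rule names are not reported here. Of the 24393 symbols, 23436 were matched to 1 GENCODE M21 gene, and 15312 of the 15577 compared. A planned description of 3 promoter motifs was not made, since no promoter sequence was used here. The counting rule was tested on simulated data with 200 planted genes. The simulation held counting error only, without spread between libraries or the low detection of Day 8. It therefore does not show how the rule behaves under those conditions. Alternatives were other filters, gaps, pseudocounts and scalings, reads in all 4 libraries, and each library left out. Python 3.11.15, pandas 2.3.3, numpy 2.4.6, scipy 1.17.1 and matplotlib 3.10.9 were used.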

Additional observations from a re-analysis of the deposited data

Results flagged for a closer look

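The 3 libraries outside the split held reads of the 3 marker genes, above the limit that 3 reads set in each library. Lyz2 had 197 normalized counts at Day 2, 1949 in iPSCs and 1915 in ESCs, from 215, 832 and 1773 reads. C1qb had 541 normalized counts in iPSCs and 293 in ESCs, from 231 and 271 reads. Spi1 had 108 normalized counts in iPSCs and 172 in ESCs, from 46 and 159 reads. C1qb and Spi1 had no read at Day 2. The iPSC library was the shallowest of the series, with 15370903 reads, and 1 read there was worth 2.34 normalized counts.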

How the results depend on the processing

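No paired analysis was possible because each label has 1 library. Each count is given here for genes higher at Days 8 and 13 (318), at Days 10 and 15 (365), and for leukocyte-list genes in each direction (85 and 1). A filter at 4 gave 762 genes and 2 leukocyte-list genes higher at Days 10 and 15, no filter gave 1001 and 2, and a filter at 8 gave 87 genes. A gap of at least 2 gave 180 genes higher at Days 8 and 13, and 182 genes and 0 leukocyte-list genes higher at Days 10 and 15. With reads in all 4 libraries there were 188 and 47 higher at Days 8 and 13, and 61 and 0 higher at Days 10 and 15. A pseudocount of 8 and scaling to equal totals moved each count by less than 1.5 times. With 1 library left out, the genes higher at Days 8 and 13 numbered 741 (no Day 8) to 1838 (no Day 13), those higher at Days 10 and 15 numbered 564 to 4075 (the same libraries), and the leukocyte-list genes 95 to 112 and 1 to 28. Fewer libraries give a looser rule by construction. The 33 genes of the top lists and markers kept their direction and a gap of at least 1 under the pseudocount and the equal totals. Most of them were chosen for their large gaps, so little else could come out and nothing is read from that. The size of a gap did depend on the pseudocount: that of Hk3 went from 8.22 to 5.26. Each library was left out for them as well. A gap can then only stay or grow, so that outcome was fixed in advance and nothing is read from it. At 1 library per label, depth and detection limit what can be said of low genes: 3372 of the genes compared had no read at Day 8.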
